A study of Xenopus laevis with 72 samples.

Results

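Xenopus laevis embryos that had received a control morpholino (Ctrl MO) were compared with non-injected embryos (NI Ctrl) at 6.5 h post-fertilisation (hpf), by total RNA sequencing of whole embryos. The samples are the libraries labelled with either group and this time point: 6 Ctrl MO and 6 NI Ctrl libraries, 12 of the 72 in the series. The series asked how histone methylation laid down before genome activation is carried through it, and used Ctrl MO embryos as the reference for knockdown of kmt2b and cxxc1, which are among the regulators of histone H3 lysine 4 methylation. All embryos of both groups were wild type by the labels, were grown at 18 °C and came from 2 frogs. Each frog is a biological replicate, here replicate 1 and replicate 2, with 3 sets of 3 whole embryos per group, and each set was pooled into a library. The Ctrl MO embryos received the standard control oligo of the supplier at the single-cell stage, and the NI Ctrl embryos received none. No embryo was injected without an oligo among the 12 libraries, so the act of injection and the oligo cannot be told apart.

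Before zygotic genome activation the frog embryo runs on messenger RNAs stored in the egg, and these are cleared while the embryo's own genes are switched on. A morpholino is a synthetic antisense oligo that blocks translation or splicing of the RNA it pairs with, and a control morpholino is designed to have no target in the embryo. Morpholino injection is known from zebrafish and frog work to induce interferon-type immune genes in some settings. Xenopus laevis is an allotetraploid, and most genes have a copy on a long (L) and on a short (S) chromosome, called homeologs.

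Expression was given in TPM, the number of transcripts of a gene scaled for transcript length and to a fixed total per library. The 12 libraries separated first by frog: the first principal component held 49.3% of the variance and split the 2 biological replicates without overlap. Correlations of log2(TPM + 1) between libraries of one frog were 0.970 to 0.980 within a group and 0.968 to 0.981 between Ctrl MO and NI Ctrl, against 0.926 to 0.948 between frogs. From 18632 to 19088 entries reached 1 TPM in Ctrl MO libraries, and 18434 to 19180 did in NI Ctrl libraries (difference of means 11.3 entries, exact permutation test within replicates, two-sided p = 0.91, adjusted over 4 library measures 0.91). Sequencing depth is unknown, because TPM does not keep it. Maternal and early zygotic markers were present in both groups, and markers of later tissues were low. The summed level of 8 maternal marker entries was 848 to 1207 TPM in Ctrl MO and 756 to 1182 TPM in NI Ctrl. That of 16 early zygotic marker entries was 135 to 323 TPM and 142 to 400 TPM. The 43 marker entries of later tissues summed to 8.08 to 12.9 TPM in Ctrl MO and 9.22 to 12.3 TPM in NI Ctrl. Of these 43, myod1.L alone passed the level filter. These ranges pool both frogs, which differed. Genes that rise over these hours, sorted below, had a mean log2(TPM + 1) of 3.55 in Ctrl MO and 3.59 in NI Ctrl of replicate 1. In replicate 2 these means were 4.11 and 4.22. In whole embryos, fewer cells of a type and less RNA per cell cannot be told apart.

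Control morpholino injection was accompanied by few changes in RNA level at 6.5 hpf. Of 18080 tested genes, 4 were higher in Ctrl MO (0.0221% of all genes tested) and 5 were lower (0.0277%) at an adjusted p under 0.05, by limma over both replicates with the replicate as a covariate. The genes with symbols were mcl1.L, rhob.L and uqcrc1.L, which rose, and pomp.S and zar1.S, which fell. The other 4 carry no symbol beyond a locus number and are named here after their values were seen: the small nucleolar RNA LOC121399240 rose, and the small nucleolar RNA LOC121396655 and the neighbouring protein-coding genes LOC108705533 and LOC121393587 fell. Both small nucleolar RNAs were at 0 in a whole group of at least a single replicate. They passed the level filter there only through the other group. The median gene changed by 0.02 on the log2(TPM + 1) scale, with a median absolute change of 0.04. At an unadjusted p under 0.05, 315 genes were higher (1.74%) and 191 lower (1.06%), 506 in all, against 904 expected if no gene differed. The 95% interval of the change lay within 2-fold in either direction for 17547 genes (97.1%) and within 1.5-fold for 17105 (94.6%). Changes had the same sign in both biological replicates for 9980 genes (55.2%). A test of whether the change differed between the frogs passed for 0 genes in limma, with 318 at an unadjusted p under 0.05. The count of 9 called genes was 5 when Ctrl MO set I.3 or II.3 or NI Ctrl set I.1, I.3, II.1 or II.3 was left out, and 21 without Ctrl MO set II.2. mcl1.L, rhob.L and uqcrc1.L passed under all 19 alternative settings, pomp.S under 18 of 19 and LOC121396655 under 17 of the 18 that tested it, while zar1.S and the remaining genes passed under 5 or 6.

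**Figure D1:**
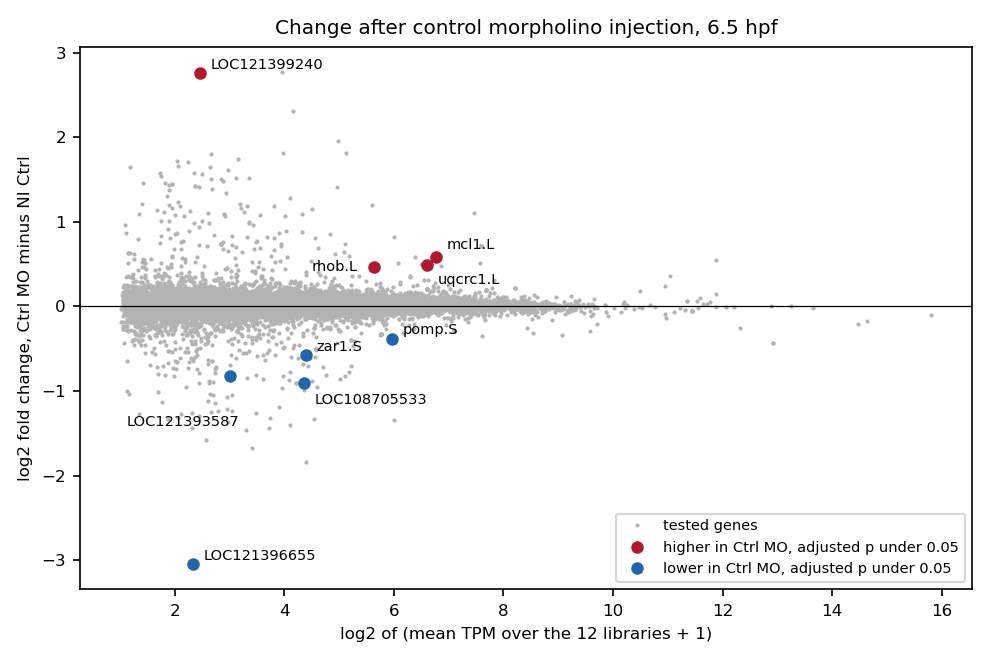
Log2 fold change (Ctrl MO minus NI Ctrl, on the log2(TPM + 1) scale) of the 18080 tested genes on the vertical axis against their mean level, log2(mean TPM + 1), on the horizontal axis. The cloud lies around 0, the 4 genes that rose are red and the 5 that fell are blue, and each of these 9 is named.

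mcl1 encodes a relative of BCL2 that protects cells from apoptosis and is known for its short-lived RNA and protein. mcl1.L (chromosome 8L, 118288580 to 118294144, assembly v10.1) had 132.3, 136.6 and 151.2 TPM in the Ctrl MO sets of replicate 1 and 108.6, 134.3 and 119.8 TPM in those of replicate 2, against 94.40, 89.55 and 85.57 TPM and 80.45, 86.78 and 81.28 TPM in the NI Ctrl sets. Every Ctrl MO set lay above every NI Ctrl set. The log2 fold change was 0.58 ± 0.06 (SE, n = 6 against 6; 1.5-fold; 95% interval 0.46 to 0.70; limma adjusted p = 0.0013).

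rhob encodes a small GTPase that acts on endosomes and the actin cytoskeleton. rhob.L (chromosome 5L, 154736255 to 154739195) had 50.17, 52.55 and 54.67 TPM in Ctrl MO sets of replicate 1 and 62.42, 60.07 and 61.71 TPM in those of replicate 2, against 36.75, 41.65 and 39.47 TPM and 38.21, 44.99 and 43.51 TPM in NI Ctrl sets. Again the groups did not overlap, and the sets of each group were close to one another. The log2 fold change was 0.47 ± 0.05 (1.39-fold; 95% interval 0.36 to 0.58; limma adjusted p = 0.0032).

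uqcrc1 encodes a core protein of complex III of the mitochondrial respiratory chain. uqcrc1.L (chromosome 4L, 136066617 to 136081523) had 117.1, 108.1 and 130.9 TPM in Ctrl MO sets of replicate 1 and 107.0, 108.4 and 105.6 TPM in those of replicate 2, against 74.87, 86.25 and 83.23 TPM and 72.57, 80.06 and 84.14 TPM in NI Ctrl sets. All 6 Ctrl MO sets were above all 6 NI Ctrl sets. The log2 fold change was 0.49 ± 0.06 (1.40-fold; 95% interval 0.37 to 0.61; limma adjusted p = 0.0043). Of 14 genes for subunits and assembly factors of complex III, all tested, uqcrc1.L was the only member called, and the median change was 0.00. Over all tested genes, 0.0221% were called higher and 0.0277% lower. The complex III list was drawn up after the values were seen.

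pomp encodes the proteasome maturation protein, a chaperone that is used up in the assembly of the 20S core. pomp.S (chromosome 6S, 6660759 to 6668687) had 57.74, 52.82 and 56.31 TPM in Ctrl MO sets of replicate 1 and 49.59, 50.44 and 51.67 TPM in those of replicate 2, against 69.65, 70.95 and 69.17 TPM and 74.55, 68.39 and 63.82 TPM in NI Ctrl sets. Each of the 6 Ctrl MO sets was below each NI Ctrl set. The log2 fold change was -0.38 ± 0.04 (0.768-fold; 95% interval -0.48 to -0.29; limma adjusted p = 0.0043). Of 79 tested genes for proteasome subunits and assembly factors, again a list made after the values were seen, pomp.S alone was called, 3 were higher and 5 lower at an unadjusted p under 0.05, and the median was 0.01. At that level 1.74% of all genes were higher and 1.06% lower. Over all tested genes, 0.0221% were called higher and 0.0277% lower. The proteasome list's next gene was psmc5.S, an ATPase of the 19S regulatory particle, at -0.26 ± 0.05 (limma adjusted p = 0.29), with psmc5.L at -0.13 ± 0.04 (0.92) and psmb4.S, of the catalytic core, at -0.13 ± 0.04 (1.0).

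zar1 encodes zygote arrest 1, an RNA-binding protein of the oocyte that acts on stored maternal mRNAs. zar1.S (chromosome 1S, 28060218 to 28064936) had 16.37, 20.63 and 14.96 TPM in Ctrl MO sets of replicate 1 and 15.52, 13.88 and 14.10 TPM in those of replicate 2, against 25.74, 20.76 and 25.41 TPM and 22.56, 26.27 and 23.97 TPM in NI Ctrl sets. The groups did not overlap in either replicate, although Ctrl MO set I.2 came within 0.2 TPM of NI Ctrl set I.2. The log2 fold change was -0.58 ± 0.09 (95% interval -0.77 to -0.39; limma adjusted p = 0.041), and it passed in 5 of 19 alternative settings.

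The neighbouring genes LOC108705533 (chromosome 5L, 82585 to 86668) and LOC121393587 (43328 to 48980 on the same chromosome) are annotated as protein-coding with no further name. LOC108705533 had 4.161, 6.196 and 3.646 TPM in Ctrl MO sets of replicate 1 and 16.96, 30.63 and 21.45 TPM in those of replicate 2, against 9.495, 10.09 and 10.67 TPM and 39.38, 43.72 and 38.37 TPM in NI Ctrl sets. LOC121393587 had 1.230, 1.590 and 1.551 TPM and 6.050, 11.61 and 6.666 TPM in Ctrl MO sets, against 3.108, 2.915 and 3.138 TPM and 16.48, 15.06 and 15.60 TPM in NI Ctrl sets. Both genes were lower in Ctrl MO within each frog, and both were several times higher in replicate 2 than in replicate 1 in either group, by levels set across separately scaled tables. Their log2 fold changes were -0.91 ± 0.13 (95% interval -1.20 to -0.62; limma adjusted p = 0.037) and -0.82 ± 0.12 (-1.10 to -0.55; 0.041). Both genes rise steeply in these hours: in NI Ctrl, LOC108705533 was at 0.761 to 4.904 TPM at 5.5 hpf and 54.12 to 175.2 TPM at 7.5 hpf. At 7.5 hpf their changes in Ctrl MO were -0.19 and -0.09 and did not pass. Each of these calls was lost when most single sets were left out.

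The small nucleolar RNA LOC121396655 (chromosome 7S, 3443282 to 3443402) was listed at 0 in all 6 Ctrl MO sets, against 4.966, 5.261 and 6.091 TPM in NI Ctrl sets of replicate 1 and 10.71, 16.08 and 5.093 TPM in those of replicate 2 (limma adjusted p = 9.29e-05). The small nucleolar RNA LOC121399240 (chromosome 9_10S, 46835535 to 46835665) ran the other way, with 8.341, 10.14 and 10.01 TPM in Ctrl MO sets of replicate 1 and 4.585, 8.340 and 8.017 TPM in those of replicate 2, against 0 in all NI Ctrl sets but II.2, which had 4.699 TPM (limma adjusted p = 0.037). The first was separated between the groups in both frogs, and the second overlapped in replicate 2. The level filter took the mean over both groups of a replicate. LOC121396655 thus entered the test only through its NI Ctrl values, and LOC121399240 in replicate 1 only through its Ctrl MO values. Their adjusted p-values are therefore no support for a difference. Small nucleolar RNAs guide chemical modification of ribosomal and other RNAs, and how many reads these TPM values stand for is not known. No fold is given against a group at 0. Neither separation was present at the other times. LOC121396655 was listed at 0 in every library of both groups at 5.5 hpf, and at 7.5 hpf it had 0 to 10.49 TPM in Ctrl MO and 0 to 14.41 TPM in NI Ctrl. LOC121399240 was at 0 in all Ctrl MO sets and 5 of 6 NI Ctrl sets at 5.5 hpf, and at 0 to 16.65 TPM in Ctrl MO and 0 to 5.886 TPM in NI Ctrl at 7.5 hpf.

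**Figure D2:**
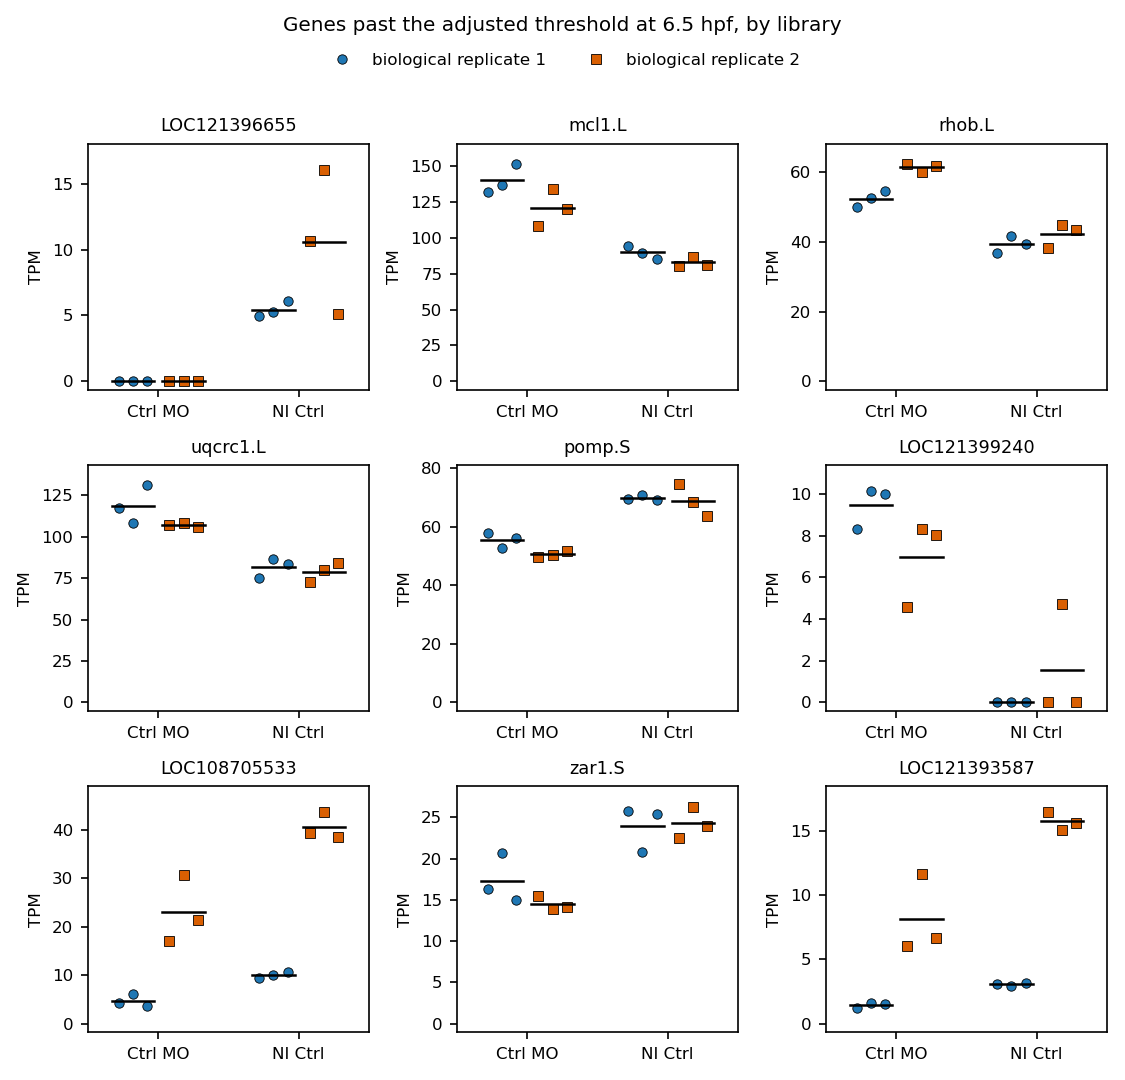
TPM of the 9 genes called at 6.5 hpf in each library, with Ctrl MO to the left of NI Ctrl, biological replicates apart, and a black line at the mean of the 3 sets. Groups are separate in both replicates for all genes but LOC121399240, where NI Ctrl set II.2 at 4.699 TPM lies just above Ctrl MO set II.1 at 4.585 TPM.

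Over all genes, 30 were higher in Ctrl MO with no overlap in either biological replicate (0.166%) and 27 were lower (0.149%), and 8 of the 9 called genes were among these. By the rule for named genes, the list in each direction was filled with genes that did not pass. On the higher side these were zdhhc20.S, a protein palmitoyltransferase (0.28 ± 0.05, limma adjusted p = 0.29), smg6.L, an endonuclease of nonsense-mediated decay (0.37 ± 0.07, 0.30), rplp2.S, of the ribosomal stalk (0.23 ± 0.05, 0.49), ndufa8.S, of respiratory complex I (0.42 ± 0.10, 0.55), and cab39l.L, a scaffold of the kinase LKB1 in mammals (0.20 ± 0.05, 0.55). On the lower side they were psmc5.S, ahsa1.L, an activator of the chaperone Hsp90 (-0.15 ± 0.03, 0.45), snrpd1.L, of the spliceosomal Sm core (-0.22 ± 0.05, 0.51), upp2.S, a uridine phosphorylase (-0.31 ± 0.07, 0.55), tubal3.2.L, an alpha-tubulin (-0.34 ± 0.08, 0.55), and cct4.L, of the chaperonin that folds tubulin and actin (-0.21 ± 0.06, 0.80). Some of these showed little scatter: ahsa1.L had 62.73 to 64.53 TPM in the 6 Ctrl MO sets and 67.7 to 74.68 TPM in the 6 NI Ctrl sets, without overlap. zdhhc20.S likewise had 25.21 to 30.19 TPM in Ctrl MO and 21.41 to 24.79 TPM in NI Ctrl.

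The called genes were compared with their homeologs. rhob.S had 40.93 to 46.68 TPM in Ctrl MO and 40.92 to 50.09 TPM in NI Ctrl, a log2 fold change of -0.02 (95% interval -0.14 to 0.10), where rhob.L changed by 0.47. pomp.L had 58.70 to 78.14 TPM in Ctrl MO and 54.58 to 89.51 TPM in NI Ctrl, a change of 0.00 (-0.16 to 0.16), and zar1.L, a gene of low level, had 3.208 to 4.346 TPM in Ctrl MO and 2.070 to 4.234 TPM in NI Ctrl, a change of 0.09 (-0.19 to 0.37). Of these 4 homeologs, mcl1.S alone had an interval clear of 0, at 0.16 (0.02 to 0.29; unadjusted p = 0.025, adjusted 1.0 in limma), with 78.0 to 101.6 TPM in Ctrl MO and 74.2 to 94.1 TPM in NI Ctrl. No uqcrc1.S entry was analysed here. The ratio of homeologs within a library does not depend on how libraries are scaled. By an exact permutation test of the log2 ratio within replicates (two-sided; smallest possible p 0.005), adjusted over 12 tests, rhob.L over rhob.S was higher in Ctrl MO by 0.46, 0.50 and 0.49 at 5.5, 6.5 and 7.5 hpf (adjusted p = 0.0075 each) and mcl1.L over mcl1.S by 0.54, 0.43 and 0.26 (0.0075, 0.0075 and 0.013). pomp.S over pomp.L was lower by 0.39 and 0.54 at 6.5 and 7.5 hpf (0.0075 each) and differed by -0.19 at 5.5 hpf (0.21). zar1.S over zar1.L was lower by 0.73 at 6.5 hpf (0.0075), and the differences of -0.23 and -0.32 at 5.5 and 7.5 hpf did not pass (0.14 and 0.34). The values at 6.5 hpf chose these genes. Only the differences at 5.5 and 7.5 hpf, from other libraries of the same 2 frogs, are apart from that choice. Their adjusted p-values are not fully so, because the 12 tests include those at 6.5 hpf. Without adjustment, the permutation p at 5.5 and 7.5 hpf was 0.005 and 0.005 for rhob.L over rhob.S and 0.005 and 0.01 for mcl1.L over mcl1.S. It was 0.195 and 0.005 for pomp.S over pomp.L and 0.12 and 0.335 for zar1.S over zar1.L. Pseudoalignment can assign reads shared by homeologs to either, so that the split between them is less certain than their sum.

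The same groups were also sampled an hour before and an hour after. At 5.5 hpf, 3 genes were higher in Ctrl MO (0.0168%) and 0 lower (0.00%; 106 lower, or 0.595%, at an unadjusted p under 0.05, limma), and the 3 were mcl1.L, smg6.L and rhob.L. At 7.5 hpf, 2 genes were higher (0.0112%) and 5 lower (0.0281%). mcl1.L had 193.4, 212.2 and 178.3 TPM and 135.3, 161.9 and 151.3 TPM in Ctrl MO at 5.5 hpf, against 123.0, 92.67 and 100.7 TPM and 96.47, 94.66 and 91.88 TPM in NI Ctrl, a log2 fold change of 0.77 ± 0.08 (limma adjusted p = 0.0023). By 7.5 hpf its change was 0.28 (0.33), and the replicate 2 sets overlapped. Its excess in Ctrl MO was thus 0.77, 0.58 and 0.28 at 5.5, 6.5 and 7.5 hpf, over hours in which its level fell in both groups, and a difference between these times was not tested. rhob.L rose by 0.59 ± 0.07 at 5.5 hpf (0.0066), with 48.24 to 59.90 TPM in Ctrl MO and 30.32 to 39.22 TPM in NI Ctrl. At 7.5 hpf it differed by 0.30 (0.66), where the sets of replicate 1 overlapped and those of replicate 2 did not, at 74.36 to 83.83 TPM in Ctrl MO and 48.84 to 60.29 TPM in NI Ctrl.

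For uqcrc1.L the order in time was the reverse, again without a test of the difference between times. Its change was 0.32 at 5.5 hpf (limma adjusted p = 0.33), with 98.17 to 122.5 TPM in Ctrl MO and 83.92 to 98.69 TPM in NI Ctrl, and 0.65 ± 0.08 at 7.5 hpf (0.018), with 45.36 to 61.78 TPM in Ctrl MO and 30.28 to 35.63 TPM in NI Ctrl. pomp.S differed by -0.28 at 5.5 hpf (0.75) and by -0.54 at 7.5 hpf (0.17), where it had 40.66 to 58.80 TPM in Ctrl MO and 61.21 to 97.73 TPM in NI Ctrl without overlap. zar1.S differed by -0.35 at 5.5 hpf (0.75) and -0.49 at 7.5 hpf (0.18), with 10.57 to 14.35 TPM in Ctrl MO and 14.51 to 21.23 TPM in NI Ctrl at the later time. All 5 symbol-named genes thus had the same sign at the 3 times.

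Some of the genes that filled the list at 6.5 hpf passed at a neighbouring time. smg6.L rose by 0.44 ± 0.05 at 5.5 hpf (limma adjusted p = 0.0066), with 26.36 to 30.16 TPM in Ctrl MO and 18.50 to 20.83 TPM in NI Ctrl in replicate 1, and 35.74 to 37.85 TPM and 25.90 to 29.04 TPM in replicate 2. psmc5.S fell by 0.47 on the log2 scale at 7.5 hpf (0.047), with 12.06 to 16.05 TPM in Ctrl MO and 17.87 to 23.20 TPM in NI Ctrl. tubal3.2.L fell by 0.49 at 7.5 hpf (0.047), with 18.06 to 25.43 TPM in Ctrl MO and 29.37 to 34.16 TPM in NI Ctrl. In all 3 the groups did not overlap within either frog, which comes from the same libraries as the calls and adds no support to them. The other calls at 7.5 hpf, named after their values were seen, were mycbp.S, for a partner of the transcription factor Myc, at 0.78, and LOC108696320, LOC108704568 and LOC121399336 at -0.77, -0.86 and -0.65. The count of 7 called genes at 7.5 hpf was 0 to 5 when a single set was dropped (0 without NI Ctrl set I.1, II.2 or II.3) and 27 among protein-coding genes alone.

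The series also holds embryos injected with morpholinos directed at cxxc1 (Cxxc1 MO) or kmt2b (Kmt2b MO), 6 libraries each at every time, which shows whether a value of the Ctrl MO embryos was shared by other injected embryos. This comparison was chosen after the values at 6.5 hpf were seen and uses the same Ctrl MO libraries, so at 6.5 hpf it is not independent of the choice of genes. At each time both knockdown groups are set against the same Ctrl MO libraries, and all times come from the same 2 frogs. Passing against both groups or at several times is therefore not separate support. Of all genes, 106 of 17891 (0.592%), 249 of 17991 (1.38%) and 101 of 17790 (0.568%) differed between Ctrl MO and Cxxc1 MO at 5.5, 6.5 and 7.5 hpf, and 123 of 17829 (0.690%), 278 of 18040 (1.54%) and 551 of 17798 (3.1%) between Ctrl MO and Kmt2b MO.

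rhob.L and pomp.S set the Ctrl MO embryos apart from the other injected embryos too, and uqcrc1.L did so in part. At 6.5 hpf rhob.L had 50.17 to 62.42 TPM in Ctrl MO, against 36.75 to 45.21 TPM in Cxxc1 MO, 38.19 to 47.34 TPM in Kmt2b MO and 36.75 to 44.99 TPM in NI Ctrl. It was higher in Ctrl MO than in Cxxc1 MO by 0.40, 0.49 and 0.60 on the log2 scale at 5.5, 6.5 and 7.5 hpf (limma adjusted p = 0.0060, 0.00043 and 0.0097) and than in Kmt2b MO by 0.34, 0.43 and 0.60 (0.019, 6.37e-05 and 0.0013). rhob.L thus passed against both knockdown groups at 5.5 and 7.5 hpf, in libraries that did not choose it, as well as at 6.5 hpf. pomp.S had 49.59 to 57.74 TPM in Ctrl MO at 6.5 hpf, against 61.71 to 73.91 TPM in Cxxc1 MO, 64.65 to 78.25 TPM in Kmt2b MO and 63.82 to 74.55 TPM in NI Ctrl. Its differences were -0.31, -0.38 and -0.61 from Cxxc1 MO at the 3 times (0.083, 0.0018 and 0.022) and -0.33, -0.40 and -0.65 from Kmt2b MO (0.047, 0.0012 and 0.0014). All but that from Cxxc1 MO at 5.5 hpf passed. The Ctrl MO libraries at 6.5 hpf helped choose pomp.S, so only its differences at 5.5 and 7.5 hpf are apart from that choice. uqcrc1.L had 105.6 to 130.9 TPM in Ctrl MO, against 80.63 to 96.06 TPM in Cxxc1 MO, 82.51 to 100.9 TPM in Kmt2b MO and 72.57 to 86.25 TPM in NI Ctrl. It was higher than in Cxxc1 MO by 0.37 (0.0022) and than in Kmt2b MO by 0.28 (0.024) at 6.5 hpf, and its differences at 5.5 and 7.5 hpf, from 0.15 to 0.38, did not pass. uqcrc1.L thus passed only at the time whose values chose it. The call for uqcrc1.L against Kmt2b MO was lost without Ctrl MO set II.1, II.2 or II.3 or Kmt2b MO set I.1, I.2 or II.2 and with no filter on low values (adjusted p up to 0.061). Against NI Ctrl at 6.5 hpf, uqcrc1.L was higher in Cxxc1 MO by 0.15 and 0.08 in replicates 1 and 2. In Kmt2b MO it was higher by 0.22 and 0.20, and neither difference was tested. The same differences were -0.03 to 0.10 for rhob.L and -0.01 to 0.04 for pomp.S.

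zar1.S and the pair of genes on chromosome 5L showed the other arrangement, with Ctrl MO close to the knockdown groups. zar1.S had 13.88 to 20.63 TPM in Ctrl MO at 6.5 hpf, against 13.49 to 16.87 TPM in Cxxc1 MO, 12.96 to 18.35 TPM in Kmt2b MO and 20.76 to 26.27 TPM in NI Ctrl. Ctrl MO differed by 0.05 from Cxxc1 MO (95% interval -0.11 to 0.22) and by 0.08 from Kmt2b MO (-0.13 to 0.28). LOC108705533 differed by 0.18 from Cxxc1 MO (-0.30 to 0.66) and by -0.01 from Kmt2b MO (-0.51 to 0.49), and LOC121393587 by 0.19 from each (-0.17 to 0.54 and -0.35 to 0.72). These intervals are wide for the 5L genes, so they do not show that Ctrl MO and the knockdown groups were alike. mcl1.L lay between: it had 108.6 to 151.2 TPM in Ctrl MO, against 89.30 to 128.8 TPM in Cxxc1 MO, 96.14 to 140.5 TPM in Kmt2b MO and 80.45 to 94.40 TPM in NI Ctrl. It was higher in Ctrl MO than in Cxxc1 MO by 0.29 (limma adjusted p = 0.042), and the difference of 0.06 from Kmt2b MO did not pass (-0.12 to 0.25). LOC121396655 was listed at 0 in all 6 Ctrl MO sets, in 5 of 6 Cxxc1 MO sets and in 4 of 6 Kmt2b MO sets, and in none of the NI Ctrl sets at 6.5 hpf.

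**Figure D3:**
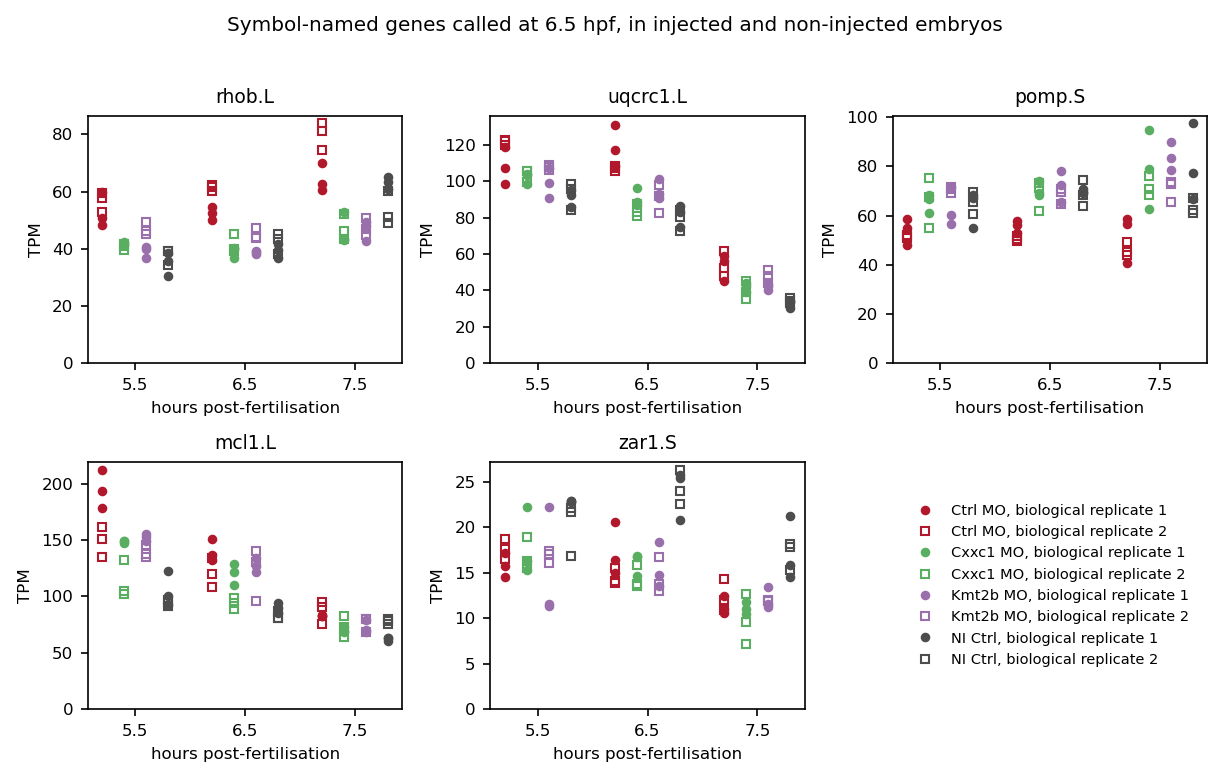
TPM of the 5 symbol-named called genes at 5.5, 6.5 and 7.5 hpf in Ctrl MO, Cxxc1 MO, Kmt2b MO and NI Ctrl libraries, from left to right at each time, with filled circles for biological replicate 1 and open squares for replicate 2. For rhob.L and pomp.S at 6.5 hpf the Ctrl MO libraries stand apart from the other 3 groups, whereas for zar1.S the injected groups lie together at 12.96 to 20.63 TPM and NI Ctrl at 20.76 TPM or more.

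Gene lists for responses that injection or a morpholino could set off held no called gene at 6.5 hpf. Only 0.0221% of all genes were called higher and 0.0277% lower, so lists of this size would rarely hold a call. Of 35 tested innate immune and interferon genes, 0 were called and 0 reached an unadjusted p under 0.05 in limma. At that level 1.74% of all genes were higher and 1.06% lower. These lists follow members above the level filter only. The changes of the 35 genes were -0.21 to 0.12 with a median of 0.02, the same as the 0.02 of all tested genes. The 95% interval lay within 2-fold for all 35. The smallest p belonged to nfkbia.L, an inhibitor of NF-kappaB, at -0.12 (95% interval -0.28 to 0.04), and irf5.L, an interferon regulatory factor, differed by 0.07 (-0.02 to 0.15). A further 27 entries of that list were under the level filter, which needed a mean of at least 1 TPM in each replicate. The highest mean of such an entry over both replicates was 6.21 TPM in Ctrl MO and 4.69 TPM in NI Ctrl.

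Lists for wounding and protein stress gave like values, beside 1.74% of all genes higher and 1.06% lower at an unadjusted p under 0.05 in limma. Of 48 immediate-early and wound response genes, 0 were called and 1 was higher at an unadjusted p under 0.05, dusp4.L, a phosphatase of MAP kinases, at 0.13. The orphan receptor gene nr4a1.L differed by 0.18 (95% interval -0.0048 to 0.36) and myc.S by -0.08 (-0.16 to 0.0036). Of 45 heat shock and unfolded protein response genes, 0 were called and 1 was higher at an unadjusted p under 0.05, hsf2.L, a heat shock transcription factor, at 0.11. Of 34 plasma membrane repair genes, 0 were called and 1 was higher at that level, vps4a.L, the ATPase that disassembles ESCRT-III, at 0.13. The 3 medians were -0.02, 0.01 and 0.02, and the 95% intervals of all 48, 45 and 34 genes lay within 2-fold. At 5.5 hpf, an hour closer to the injection, these 4 lists again had 0 called genes, with 3 of all 17812 genes called (0.0168%). At an unadjusted p under 0.05 in limma, 5 of 49 immediate-early and wound response genes were higher, 1 of 34 innate immune and interferon genes, 2 of 45 heat shock and unfolded protein response genes and 2 of 34 plasma membrane repair genes, and 0 in these lists were lower, beside 994 higher (5.58%) and 106 lower of all 17812 genes. Their medians were 0.07, 0.06, 0.04 and 0.05, beside 0.05 for all genes. The paper describes the genome as globally silent in the cleavages before zygotic genome activation. Members near 0 TPM in either replicate were also under the level filter. These counts therefore cannot show whether injection set off such a response, which was not tested.

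**Figure D4:**
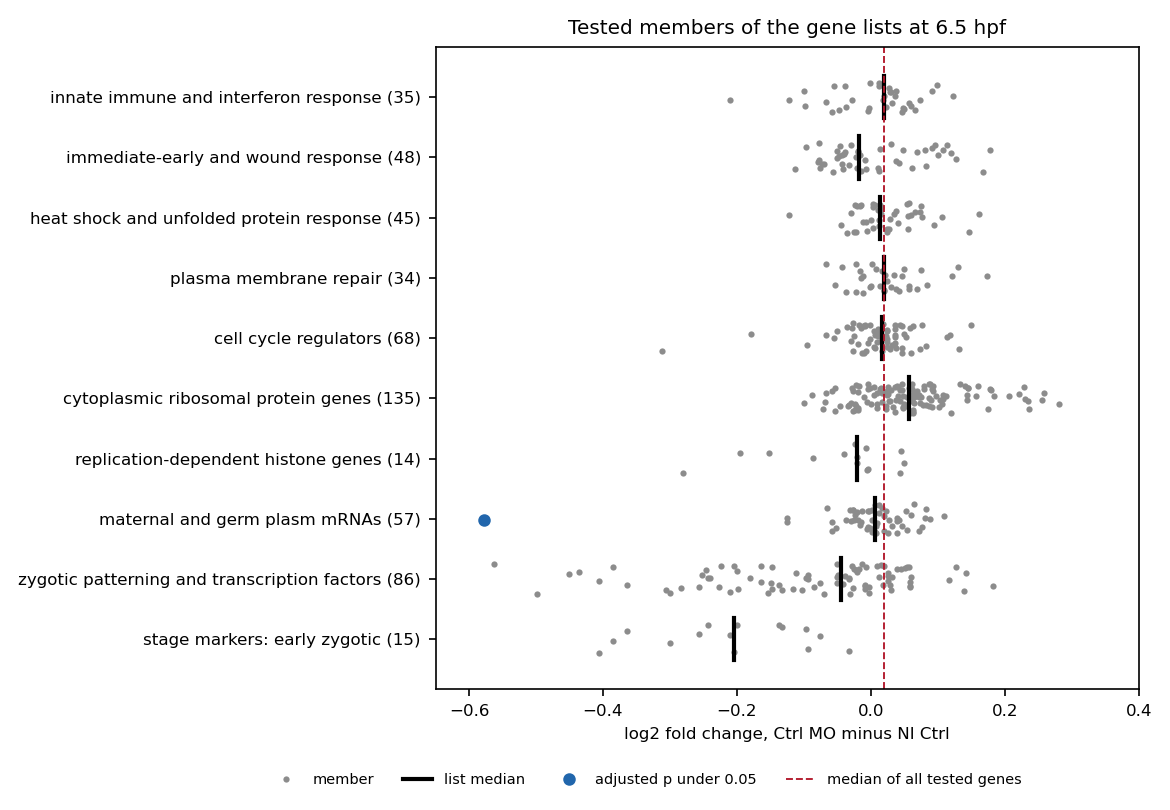
Log2 fold change (Ctrl MO minus NI Ctrl) at 6.5 hpf of each tested member of 10 gene lists, as points, with a black bar at the list's median and a dashed line at the median of all tested genes, 0.02. The 4 stress and response lists at the top sit around the dashed line, zar1.S is the single member called, and all 15 early zygotic stage markers lie below 0.

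Stored maternal RNAs and housekeeping groups were close to the median gene at 6.5 hpf. Of all genes, 0.0221% were called higher and 0.0277% lower, so lists of this size would rarely hold a call. Of 57 tested maternal and germ plasm mRNAs, zar1.S was the only one called, with a median of 0.01. zar2.S, the paralogue of zar1, had an unadjusted p of 0.038 at -0.12 and btg4.L, an adaptor for removal of poly(A) tails from maternal mRNA, 0.039 at 0.11, both with an adjusted p of 1.0 in limma. Of 68 cell cycle regulators 0 were called, and the smallest p was that of cdk1.L, the mitotic kinase, at 0.12 (unadjusted p = 0.020). The 135 cytoplasmic ribosomal protein genes had 0 called and 5 higher at an unadjusted p under 0.05, led by rplp2.S, beside 1.74% of all genes higher at that level. Of these 135, 107 had a change above 0 (median 0.06) at 6.5 hpf, whereas at 5.5 hpf 116 of 135 were below 0 (median -0.10), so that their small shift had no constant sign. Of all genes, 63.7% were above 0 at 6.5 hpf and 23.2% below 0 at 5.5 hpf. Of 14 replication-dependent histone genes 0 were called, at a median of -0.02.

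At 6.5 hpf, listed genes that the embryo itself had begun to transcribe had changes mostly below 0, without a call. The lists were chosen with earlier results of these data known, so their counts are no independent support for a shift. All 15 tested early zygotic stage markers had a change below 0, with 0 called and 4 at an unadjusted p under 0.05 in limma. Of all tested genes, 36.3% were below 0, 1.06% were lower at that level and 0.0277% were called lower. The median of the markers was -0.20, which was -0.08 in biological replicate 1 and -0.38 in replicate 2. For nodal6.L, a ligand of the Nodal family that induces mesendoderm, the sets had 3.865, 5.236 and 3.835 TPM in Ctrl MO replicate 1 and 8.198, 10.54 and 10.36 TPM in replicate 2, against 5.246, 6.466 and 5.171 TPM and 11.32, 13.17 and 11.23 TPM in NI Ctrl. Its log2 fold change was -0.30 ± 0.09 (unadjusted p = 0.0062, adjusted 1.0 in limma). mix1.S, a homeobox gene downstream of Nodal, differed by -0.41, and a difference between the frogs did not pass (interaction -0.53, unadjusted p = 0.056, adjusted 1.0 in limma). Replicate 1 had 3.811 to 7.734 TPM in Ctrl MO and 5.738 to 7.050 TPM in NI Ctrl for mix1.S, and replicate 2 had 12.67 to 15.46 TPM in Ctrl MO and 21.25 to 24.02 TPM in NI Ctrl. nodal5.L differed by -0.38 and sia1.L, a target of maternal Wnt signalling in the organizer, by -0.36, both with overlap between groups in at least a single replicate.

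In the wider list of zygotic patterning and transcription factor genes, 86 of 175 entries were tested, 0 were called, 10 were lower and 0 higher at an unadjusted p under 0.05, and 61 of 86 were below 0 (median -0.05, beside 0.02 for all genes). The shares over all tested genes were 36.3% below 0, and 1.06% lower and 1.74% higher at that level. Of all tested genes, 0.0221% were called higher and 0.0277% lower. The median of the list was 0.00 in replicate 1 and -0.11 in replicate 2. Its smallest p belonged to id3.L, an inhibitor of basic helix-loop-helix factors, at -0.56 ± 0.14 (limma adjusted p = 0.55), with 0.5035 to 1.016 TPM in Ctrl MO and 1.400 to 2.136 TPM in NI Ctrl in replicate 1, and 1.348 to 2.894 TPM and 2.924 to 4.025 TPM in replicate 2. In replicate 1 the Ctrl MO sets of id3.L averaged under the 1 TPM of the level filter. There id3.L entered the test only through its NI Ctrl values, so its p is no support for a difference. ventx2.2.L, a ventralising homeobox gene, differed by -0.45 and the Nodal ligand gene nodal5.2.L by -0.44. At 7.5 hpf the wider list had 123 genes tested, with 0 called, 25 lower and 2 higher at an unadjusted p under 0.05, and 91 below 0 (median -0.10). Of all 17803 genes at that time, 392 were lower (2.2%) and 884 higher (4.97%) at that level in limma, with a median of 0.05 and 31.9% below 0. The stage markers at 7.5 hpf had 0 of 16 called and 13 below 0 (median -0.20). The 5.5 hpf libraries gave 3 testable stage markers only. Of the wider list, 48 genes were tested at 5.5 hpf, with 0 called, 2 higher and 0 lower at an unadjusted p under 0.05 in limma. Of all 17812 genes, 5.58% were higher and 0.595% lower at that level. Of the 48, 9 (18.8%) were below 0 with a median of 0.06, beside 23.2% and 0.05 for all genes. The list was thus not shifted below all genes at 5.5 hpf.

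To widen this beyond chosen lists, genes were sorted by their course in NI Ctrl, from the libraries at 5.5 and 7.5 hpf. Between these, 1730 genes were higher and 14540 lower at 7.5 hpf by limma, with the median gene at -0.80. TPM has a fixed total, so a gene can be lower in TPM because others take a larger share. Genes that rose by at least 1 on the log2 scale included 757 tested at 6.5 hpf. These held 3 of the 5 called genes that fell in Ctrl MO and 0 of those that rose. Over all tested genes, 0.0277% were called lower and 0.0221% higher. Of the 3, LOC121396655 was at 0 in all Ctrl MO sets and entered the test only through NI Ctrl. Its call is therefore no support for a difference. At an unadjusted p under 0.05, 64 of the 757 were lower and 18 higher. Over all tested genes, 1.06% were lower and 1.74% higher at that level, and 36.3% were below 0. The rising genes hold 589 distinct sets of values, and 27 of the 64 lower entries were small nuclear RNAs, of which 190 rising entries hold only 39. Of the 757, 496 (65.5%) were below 0, with a median of -0.10 (-0.03 in replicate 1 and -0.13 in replicate 2), against medians of 0.02 for 12967 falling genes and 0.01 for 4356 others. Among the rising genes, 322 protein-coding genes had 247 (76.7%) below 0 and a median of -0.09, which was -0.02 in replicate 1 and -0.17 in replicate 2, with 25 lower and 2 higher at an unadjusted p under 0.05 in limma. The 164 rising small nucleolar RNAs ran the other way, with 70 (42.7%) below 0, a median of 0.09, and 5 lower and 10 higher at that level. The mean log2(TPM + 1) of the rising genes in single libraries was 3.399, 3.767 and 3.489 in Ctrl MO and 3.513, 3.746 and 3.501 in NI Ctrl for replicate 1, and 3.95, 4.28 and 4.11 in Ctrl MO and 4.08, 4.32 and 4.25 in NI Ctrl for replicate 2. The groups overlapped in both replicates. Between sets with the same number, Ctrl MO differed from NI Ctrl by -0.11, 0.02 and -0.01 in replicate 1 and by -0.13, -0.04 and -0.14 in replicate 2, below 0 in 5 of 6. The labels do not say that set numbers pair the groups, so this is given without a test. With each library centred on its median gene, 1536 genes counted as rising and their median was -0.03.

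**Figure D5:**
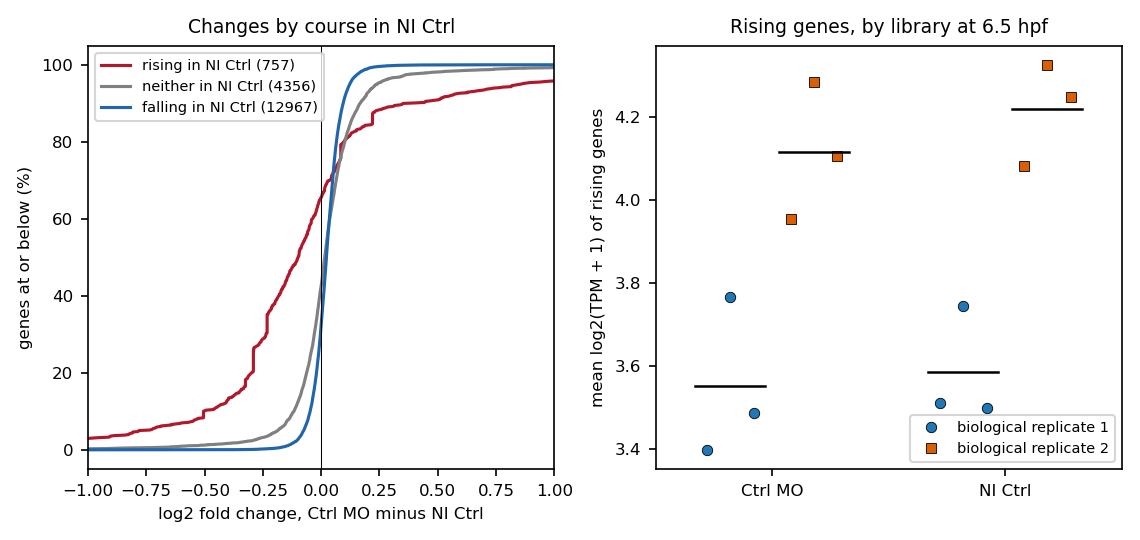
Left, cumulative share of genes (vertical axis, %) at or below a given log2 fold change, Ctrl MO minus NI Ctrl (horizontal axis), for genes rising, falling or neither in NI Ctrl from 5.5 to 7.5 hpf. Right, mean log2(TPM + 1) of the 757 rising genes in each library, with a line at the mean of 3 sets: the curve of rising genes is shifted to the left with a median of -0.10, and the libraries of Ctrl MO and NI Ctrl overlap in both biological replicates.

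Short non-coding RNAs had the widest changes, and their changes were also the least precise. The median SE of the change was 0.39 for small nuclear RNAs and 0.69 for small nucleolar RNAs, beside 0.07 for all tested genes. The interval of the change lay within 2-fold for 85 of 206 and 57 of 345 of these entries, beside 17547 of all 18080 genes. The wide changes therefore do not show larger effects. At an unadjusted p under 0.05 in limma, 1.74% of all genes were higher and 1.06% lower. Of all tested genes, 0.0221% were called higher and 0.0277% lower. The 206 tested small nuclear RNA entries, parts of the splicing machinery, had 0 called, 27 lower and 5 higher at an unadjusted p under 0.05 in limma, and a median of -0.23 (-0.13 in each replicate). These are far from independent, because they hold only 50 distinct sets of values: copies of a small nuclear RNA gene share all their values in the table. The 345 tested small nucleolar RNAs had the 2 called genes above, 17 higher and 6 lower at an unadjusted p under 0.05, and a median of 0.16, which was 0.01 in replicate 1 and 0.32 in replicate 2. Those 2 passed the level filter in at least a single replicate only through the group where they were high. Their calls are no support for a difference. Of 574 long non-coding RNAs, 0 were called, 16 were higher and 16 lower at an unadjusted p under 0.05, and the median was 0.01.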

How the data were processed

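Total RNA of whole embryos was depleted of ribosomal RNA and sequenced from directional libraries. The authors quantified transcripts by pseudoalignment (kallisto 0.48; Xenbase transcripts, assembly v10.1) and summed isoforms per gene. The deposited values are TPM (transcript abundance scaled for length and to a fixed total per library), in a table for each biological replicate; R 4.3.2 and DESeq2 1.42.1 are also named in the submitters' processing notes. Because the values are TPM and not counts, no count test was run, depth is unknown and a gene at 0 is only said to be listed at 0.

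Of 39668 entries, 2256 tRNA rows (0.22% to 0.57% of the total in replicate 1 and 3.82% to 5.20% in replicate 2) were dropped, and the rest were rescaled to the full TPM total. Genes averaging 1 TPM or more in each table entered limma, version 3.58.1, on the log2(TPM + 1) scale (R 4.3.3; data.table, version 1.17.8), with Benjamini-Hochberg adjustment over all tested genes, with biological replicate as covariate. Fold changes on this scale understate those of low genes. P-values measure the spread between sets of embryos from 2 frogs. Single values were tested by exact permutation within replicates. Code was tested on simulated data. Gene names and positions came from the RefSeq annotation of assembly v10.1, which matched 38926 entries.

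Named genes were up to 12 in each direction with an adjusted p under 0.05, a symbol, at least 5 TPM in either group and the same direction in both tables, filled by smallest p to 8 per direction, and the 4 members of each list with the smallest p. Members and lists were chosen with earlier results of these data known. The proteasome and complex III lists, the genes without symbols and the comparison with knockdown groups were added after the values were seen. Alternatives were another pseudocount (0.1), no filter, tRNA rows kept, protein-coding genes only, centring on the median gene, all 4 groups in the fit, a block for set number and leaving out each set. A further gene list is not reported here.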

Additional observations from a re-analysis of the deposited data

Results flagged for a closer look

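Of 30 group values checked for a library far from the rest, 1 stood out: the small nucleolar RNA LOC121399240 in NI Ctrl had 4.7 TPM in set II.2, while the other 5 NI Ctrl sets were listed at 0. By Dixon's criterion, chance marks about 1 in 20 groups of this size.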

How the results depend on the processing

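No called gene changed sign under any alternative. The homeologs, none of which passed, partly changed sign over the 19 settings: rhob.S lay at -0.05 to 0.01 (above 0 in 2), pomp.L at -0.04 to 0.05 (in 11) and zar1.L at -0.0084 to 0.16 (in 18). The count of 9 called genes at 6.5 hpf was 5 with no filter on low values and 5 to 21 when each set was left out. In replicate 1 alone the 10 called genes became 0 among protein-coding genes and 2 with all 4 groups fitted, and 11 to 15 without a set. In replicate 2 alone the 2 called genes became 7 with a pseudocount of 0.1 TPM, 0 with no filter, 0 among protein-coding genes and 1 with centring, and 0 to 14 without a set. The interaction count of 0 was 2 with no filter and 0 to 2 without a set. At 5.5 hpf the 3 called genes became 5 among protein-coding genes and 6 with all 4 groups fitted. At 7.5 hpf the 7 called genes became 1 with a pseudocount of 0.1 TPM, 2 with no filter, 0 with tRNA rows kept, 27 among protein-coding genes, 15 with centring and 13 with all 4 groups fitted, and 0 to 5 without a set. The cause of these moves was not tested. The medians of rising and falling genes kept their sign without any set, at -0.14 to -0.07 and 0.0035 to 0.037. Depth is not known from TPM, so what it limits cannot be given.

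Set numbers are shared between the groups. Deviations of same-numbered sets correlated at 0.096 to 0.173 in replicate 1 and 0.028 to 0.105 in replicate 2, each above the best other pairing, which is a hint from the data and not from the design, and the sets were not treated as pairs. With a replicate block for set number the count at 6.5 hpf was 4, in replicate 2 alone 0 and at 7.5 hpf 2.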
